A study of Mus musculus with 4 samples.

Results

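Gene expression in 2 cell populations sorted from the bone marrow of transplanted mice was compared 10 days after transplantation: LSK cells and CD45-negative cells. The comparison rests on 2 of the 4 arrays of the series, 1 for each population, and on the 23966 gene names that were well above background on both, of 50090 on the array. They were taken by the rule that the brightest probe of the name carried the scanner software's flag for a signal well above background on both arrays, whatever the size of the difference. With 1 array a side there is no replicate, no standard error and no test, so every difference below is a difference between 2 arrays, and the number of arrays limits its precision.

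LSK cells are marrow cells that lack lineage markers and carry Sca-1 and c-kit. The CD45-negative cells were collected as stromal cells of the stem cell niche. All mice were C57BL6/J and 7 weeks old, and their sex is not stated in the labels. The day 10 groups came from recipients that carried CD45.1, were irradiated with 700 cGy and were given 30000 LSK cells from CD45.2 donors. The day 0 groups, used here for values side by side, came from healthy mice. One passage of the labels describes the stromal gate as CD45.1-negative and others as CD45-negative, so which cells the gate removed at day 10 is not settled. How many mice stand behind each array is not stated.

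Blood stem and progenitor cells depend on neighbouring marrow cells that make the chemokine CXCL12, stem cell factor, angiopoietins and adhesion molecules. Radiation empties the marrow of most dividing blood cells, and transplanted stem and progenitor cells then divide and refill the lineages. CD45, encoded by Ptprc, is the antigen found on nearly all blood cells but not on stroma, endothelium or mature red cells, so a CD45-negative sort is meant to hold the cells that support blood formation.

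A level is the log2 signal of a gene's probe minus the 75th percentile of its array, and a difference is the LSK level minus the CD45-negative level, so a positive difference means higher in LSK cells. A difference of at least 2-fold, 1 log2 unit, was counted; it is a size and not a test. Between 47.6% and 56.6% of the 61307 gene probes were well above background on the 4 arrays. Probes spotted more than once gave SDs between their spots of 0.16 to 0.21 log2 units on each array. Because the arrays measured bulk samples, fewer cells of a type and less RNA per cell cannot be told apart.

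The genes behind the sort were examined first. Kit, the receptor for stem cell factor by which LSK cells were gated, lay at 4.79 in LSK cells and 1.92 in CD45-negative cells, 7.30-fold apart. Ly6a, which encodes Sca-1, lay at 2.87 in LSK cells and 3.44 in CD45-negative cells, so it was 1.49-fold higher in the population that had not been gated for it. Ptprc lay at 4.26 in LSK cells and 5.58 in CD45-negative cells. The gene of CD45 was thus 2.51-fold higher in the CD45-negative array, with its 3 probes differing by -1.33 to -0.22. At day 0 the order was the opposite, with Ptprc at 4.18 in LSK cells and 3.10 in CD45-negative cells. Cxcl12, the defining chemokine of reticular niche cells, lay at -1.30 in LSK cells and 1.25 in CD45-negative cells at day 10, but at -2.30 and 4.40 at day 0. In CD45-negative cells Ptprc was thus higher at day 10 than at day 0, also on a scaling to the spike-in controls, where it lay at 5.27 and -0.58. Cxcl12 was lower at day 10, but on the spike-in scaling it lay at 0.94 at day 10 and 0.72 at day 0, so its order between the days turned. The population is called here by its label. The cell types that gave these signals were not tested.

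Of the 23966 gene names, 3486 (14.5%) were at least 2-fold higher in LSK cells and 2523 (10.5%) at least 2-fold higher in CD45-negative cells. The larger differences lay on the other side, with 75 names at least 8-fold higher in LSK cells and 242 in CD45-negative cells. The median difference over all names was 0.15 and the SD of the differences 0.99. LSK cells held 58.0% of the names that were 2-fold apart. That share was 40.9% after cyclic loess normalization, 23.4% when arrays were scaled to their median and 0.6% when they were scaled to the spike-in controls, which moved every difference by -1.80. Over the 10951 names that are gene symbols, 1259 were at least 2-fold higher in LSK cells and 1530 in CD45-negative cells. Of the 8051 noncoding RNA probes measured on both arrays, 1739 (21.6%) were at least 2-fold higher in LSK cells and 495 (6.15%) in CD45-negative cells. Which scaling is right cannot be told from 2 arrays, and list medians are best read against the all-gene median of 0.15. The counts of each list below stand against the 14.5% and 10.5% of all names, or the 11.5% and 14% of gene symbols, that were at least 2-fold higher in LSK and in CD45-negative cells.

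**Figure D1:**
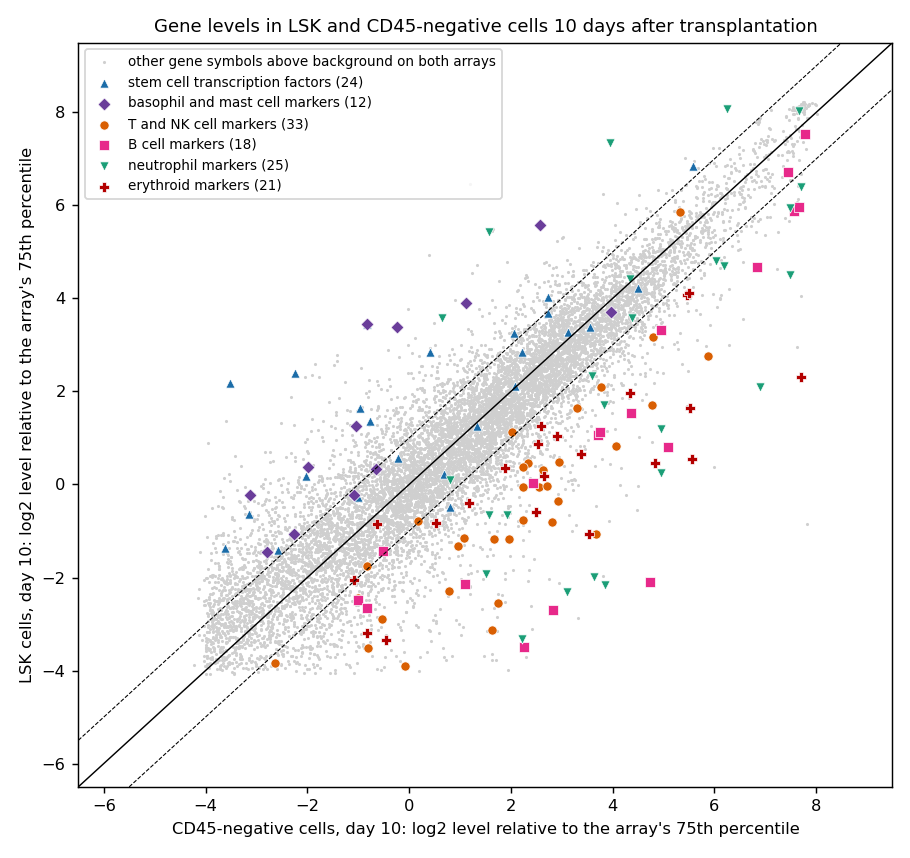
Log2 levels in CD45-negative cells (x axis) and LSK cells (y axis) at day 10, relative to the 75th percentile of each array, for every gene symbol above background on both arrays, with 6 marker lists coloured. The solid line marks equal levels and the dashed lines 2-fold; the T and NK cell, B cell and erythroid markers lie almost all below the lower dashed line, and the basophil and mast cell markers mostly above the upper one.

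Of the 10 genes named for the largest differences on the LSK side, 4 are known from stem and progenitor cells. Hlf, a bZIP transcription factor of blood stem cells, lay at 2.18 in LSK cells and -3.52 in CD45-negative cells, 52.2-fold apart and the largest of the 10 differences named on this side. Cd34, a sialomucin of progenitors and endothelium, lay at 6.47 and 1.20 in LSK and CD45-negative cells, 38.7-fold apart. Hoxa9, a homeobox factor, lay at 2.39 and -2.25 in the same order, and Gata2, a zinc finger factor needed by stem cells and mast cells, at 3.44 and -0.82. Each of these 4 genes also had its higher level in LSK cells at day 0, where Hlf was not well above background in CD45-negative cells. At day 10 the CD45-negative level of Hlf lay near the lowest called above background on that array, -4.24. With normexp background correction the difference of 5.71 for Hlf became 4.04, below the 5.08 of Cd34. The other 6 of the 10 were Pdgfrb, Tfec, Adgrl4, Slc16a11, Igfbp4 and Abcc1. They are a growth factor receptor best known from pericytes, a transcription factor of the MiT family, an adhesion receptor, a transporter of the monocarboxylate family, a binding protein of insulin-like growth factors and a drug efflux pump. Pdgfrb, at 1.36 in LSK cells and -3.59 in CD45-negative cells, was 31.0-fold apart and so stood on the side opposite to a stromal marker. Its difference of 4.95 became 3.31 with normexp background correction. At day 0 it lay at 1.50 in LSK cells and -0.92 in CD45-negative cells, the same order.

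A gene above background on 1 array and at no probe on the other gives only a lower bound, its level set against the higher of the lowest level called above background there and its own level. There were 3605 such names on the LSK side, 942 of them gene symbols, and 1125 on the CD45-negative side, 363 of them gene symbols. Myct1, a nuclear protein of stem cells and endothelium, was at least 58.5-fold higher in LSK cells, at 1.63. Angpt1, the ligand of the Tek receptor and often listed as a niche factor, was at least 20.6-fold higher in LSK cells, at 0.13. Slc22a18, a membrane transporter, was at least 17.5-fold higher. Atp6v0e2, a proton pump subunit, was at least 38.9-fold higher, but only 1 of its 2 probes was above background there, and neither was on the other 3 arrays. Myct1 was above background in the CD45-negative array at day 0, at -2.70, and not at day 10.

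On the CD45-negative side the leading genes were those of mature B cells and neutrophils. Fcrla, an Fc receptor-like protein of B cells, lay at -2.10 in LSK cells and 4.73 in CD45-negative cells, 113-fold apart. Fcmr, the receptor for IgM, lay at -3.50 and 2.27 in LSK and CD45-negative cells. Mmp9, the gelatinase stored in neutrophil granules, lay at -2.17 and 3.85, and its 2 probes differed by -7.50 and -6.02. Fpr2, a receptor for formylated peptides, Stfa2l1, of the stefin A protease inhibitors, and Ly6g, the neutrophil surface antigen, differed by -5.61, -6.01 and -5.53. Col5a3, a chain of collagen V, lay at -2.87 in LSK cells and 3.33 in CD45-negative cells. Rgs16, a regulator of G protein signalling, lay at -3.99 and 1.94. The LSK levels of Rgs16 and Stfa2l1, -3.99 and -3.71, lay near the lowest called above background on that array, -4.12. With normexp background correction the difference of -5.93 for Rgs16 became -3.80. Those of Stfa2l1, Ly6g and Fcmr became -4.00, -3.81 and -3.92. Grn, which encodes progranulin, differed by -5.60 at its brighter probe and by 0.32 at the other, so its direction rests on the choice of probe. Ly6g, Stfa2l1 and the globin genes belong to families of near-identical copies whose signals a probe may share.

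The 5 largest lower bounds on this side included 2 genes of antibody-making cells. Reln, which encodes the secreted protein reelin, was at least 54.6-fold higher in CD45-negative cells, at 1.65, and lay at 2.45 in the same population at day 0. Tnfrsf17, the plasma cell receptor BCMA, was at least 39.0-fold higher, at 1.16. An immunoglobulin kappa variable gene was at least 35.0-fold higher, at 1.01. Usp17lc, a ubiquitin protease, was at least 108-fold higher, at 2.63. Atoh7, a transcription factor known from the retina, gave the largest bound, at least 3403-fold with a level of 7.61. Only 1 of its 2 probes was above background there, and neither was on the other 3 arrays. Usp17lc likewise was above background on no other array.

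**Figure D2:**
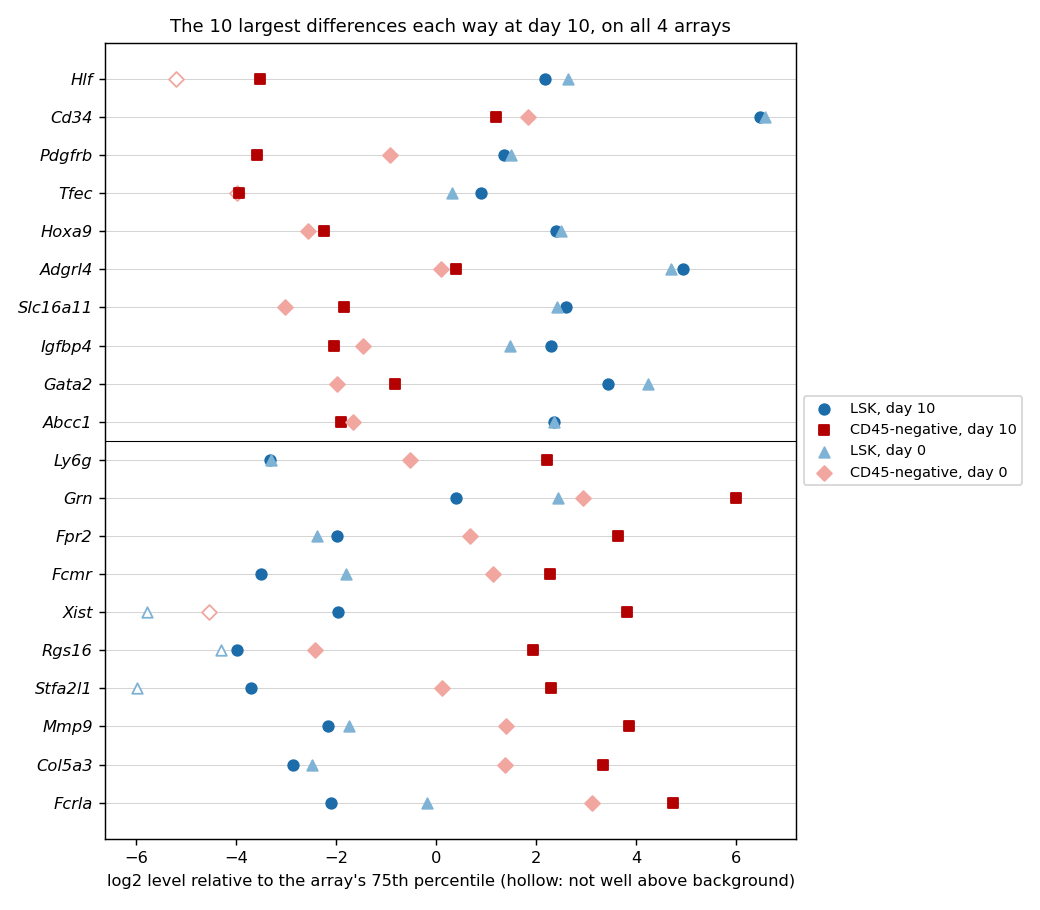
Log2 levels of the 10 largest differences each way on all 4 arrays, relative to the 75th percentile of each array; hollow symbols were not well above background. The 2 LSK arrays lie close together for the upper 10 genes, while in the lower 10 the day 10 CD45-negative array lies farthest to the right.

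Xist, the X-inactivation transcript made only in cells with 2 X chromosomes, was among the 10 largest on the CD45-negative side. It lay at -1.96 in LSK cells and 3.81 in CD45-negative cells at day 10, and was not well above background on either day 0 array. Its 3 probes differed by -5.77 to -3.46, and Tsix, its antisense partner, was at least 11.0-fold higher in CD45-negative cells. The Y-linked gene Ddx3y lay at 0.92 in LSK cells and 1.17 in CD45-negative cells at day 10, and Eif2s3y at 1.60 and 1.09. Kdm5d lay at -0.86 and -0.65 and Uty at -3.28 and -3.69. All 4 Y-linked genes were above background on all 4 arrays, and Xist on both day 10 arrays, at a lower level in LSK cells. Both day 10 arrays thus held Xist and Y-linked transcripts together. Whether cells of both sexes were mixed in either sample was not tested.

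Among the 32 stem cell transcription factors fixed as a list, 24 were above background on both arrays. Of these, 13 were at least 2-fold higher in LSK cells, against 14.5% of all names and 11.5% of gene symbols. In CD45-negative cells 1 was, Cbx7, a Polycomb protein. The median difference was 1.18, with median levels of 2.15 in LSK cells and 0.54 in CD45-negative cells; with the spike-in scaling it turned to -0.62. Lmo2, the LIM protein that bridges stem cell factors, lay at 1.64 in LSK cells and -0.96 in CD45-negative cells at day 10, but at 1.50 and 2.65 at day 0, a day 0 difference of -1.15 that turned to 0.60 with the spike-in scaling. A further 7 members were above background in LSK cells only and none in CD45-negative cells only, and those 7 included Myct1 and Nkx2-3, a homeobox factor, at least 10.2-fold higher. Other listed factors did not separate the arrays. Erg lay at 4.22 and 4.51, Fli1 at 3.38 and 3.56, Runx1 at 1.27 and 1.33 and Gfi1 at 2.11 and 2.08 in LSK and CD45-negative cells. These 4 factors, which act in stem cells and also in later blood or endothelial cells, were less than 2-fold apart, and they were singled out after their values were seen.

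Stem and progenitor surface genes divided. Of 20 measured on both arrays, 6 were at least 2-fold higher in LSK cells and 2 in CD45-negative cells, with a median of 0.39, which turned to -0.02 with median scaling and -1.41 with the spike-in scaling. Procr, the endothelial protein C receptor of stem cells, lay at -0.51 in LSK cells and -3.23 in CD45-negative cells. Emcn, endomucin, lay at -0.44 and -2.88. A further 4 members were above background in LSK cells only. Among them Flt3, the receptor of early multipotent progenitors, was at least 15.2-fold higher in LSK cells and Itga2b, the integrin of megakaryocytes, at least 13.2-fold higher. Cd53, a tetraspanin of leukocytes, stood the other way, at -0.03 in LSK cells and 1.91 in CD45-negative cells.

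Genes of the myeloid lineage were divided between the arrays. Among 17 myeloid priming genes measured, 9 were at least 2-fold higher in LSK cells and 3 in CD45-negative cells, and the median difference of 1.28 turned to -0.52 only with the spike-in scaling among the settings tried. Cebpa, the factor that starts granulocyte commitment, lay at 1.27 in LSK cells and -2.27 in CD45-negative cells. Elane, the elastase of primary granules, lay at 5.44 and 1.57, and Ctsg, cathepsin G of the same granules, at 7.34 and 3.94. Ms4a3, a membrane protein of granulocyte and monocyte precursors, lay at 5.44 and 1.62. Prtn3, the third serine protease of primary granules, lay at 3.58 and 0.65. Each of these genes of early granulocyte precursors was more than 4-fold higher in LSK cells. Mpo, which was saturated, lay at 8.08 and 6.24.

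The neutrophil list went the other way for the genes of later stages. Of 25 neutrophil markers measured, 17 were at least 2-fold higher in CD45-negative cells, against 10.5% of all names and 14% of gene symbols. In LSK cells 4 were at least 2-fold higher, and the median difference was -1.54. The 4 on the LSK side were Mpo, Prtn3, Ctsg and Elane, all of primary granules. On the other side Fpr1, the formyl peptide receptor, lay at -2.31 in LSK cells and 3.10 in CD45-negative cells. Mmp8, the collagenase of secondary granules, lay at 0.25 and 4.95, and Ltf, lactoferrin of the same granules, at 4.51 and 7.48. Cxcr2, the chemokine receptor of neutrophils that leave the marrow, lay at -0.65 and 1.92, and Cd177, a neutrophil surface protein, at -1.92 and 1.52. The split of the list by granule stage was made after the values were seen. The median level of the list was 2.33 in LSK cells and 3.94 in CD45-negative cells, and its part in the other differences was not tested.

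The promoters of these oppositely placed genes are shown because the genes belong to 1 lineage. ETS family factors such as PU.1 act in both stages, and the 6-base word ACTTCC, searched on both strands as an ETS-type word, was found on the LSK side in 5 of 8 promoters of the myeloid priming and neutrophil genes at least 2-fold apart and on the CD45-negative side in 8 of 19. The stretches below are the 4 largest differences each way among those with the word, each a stretch of 100 bases within the 250 before the start of the gene, 5′ to 3′ along the gene, from RefSeq on GRCm38.p6. Capitals mark the word, which reads GGAAGT where it lies on the opposite strand.
Elane, chr10:79886165-79886264, + strand: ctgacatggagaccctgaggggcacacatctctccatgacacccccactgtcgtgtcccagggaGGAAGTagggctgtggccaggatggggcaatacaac
Ms4a3, chr19:11640871-11640970, - strand: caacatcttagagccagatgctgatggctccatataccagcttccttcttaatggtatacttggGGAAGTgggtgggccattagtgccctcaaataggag
Ctsg, chr14:56102725-56102824, - strand: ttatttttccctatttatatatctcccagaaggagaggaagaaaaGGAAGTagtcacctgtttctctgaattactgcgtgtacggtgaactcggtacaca
Prtn3, chr10:79879510-79879609, + strand: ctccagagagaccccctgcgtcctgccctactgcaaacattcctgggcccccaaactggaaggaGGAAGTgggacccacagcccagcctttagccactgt
Ly6g, chr15:75155161-75155260, + strand: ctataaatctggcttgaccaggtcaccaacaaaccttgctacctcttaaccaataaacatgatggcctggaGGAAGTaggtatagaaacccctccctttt
Mmp8, chr9:7558179-7558278, + strand: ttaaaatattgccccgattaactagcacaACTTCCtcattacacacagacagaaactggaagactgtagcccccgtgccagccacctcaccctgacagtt
Cd177, chr7:24760410-24760509, - strand: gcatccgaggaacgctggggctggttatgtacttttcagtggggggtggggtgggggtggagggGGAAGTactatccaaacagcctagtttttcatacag
Cxcr2, chr1:74153894-74153993, + strand: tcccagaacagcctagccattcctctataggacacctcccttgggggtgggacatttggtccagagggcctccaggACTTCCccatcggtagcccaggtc
The first 4 genes were higher in LSK cells and the last 4 in CD45-negative cells, and each stretch holds the word once. The nearest word began between 24 bases before the start, at Cxcr2, and 221 bases before it, at Mmp8.

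Over all genes, each word's share in the promoters of either direction was set against its share in all promoters. RefSeq promoters matched 8666 of the 10951 gene symbols, and the 250 bases before the start were searched. The ETS word was in 19.1% of the 215 promoters of genes at least 4-fold higher in LSK cells, in 21.9% of the 283 of genes at least 4-fold higher in CD45-negative cells and in 24.1% of all 8666; it was in 20% of the 27025 promoters of the whole table. The word AGATAA, bound by GATA factors, was in 6.98%, 9.19% and 6.06% of them. The word TGTGGT, bound by RUNX factors, was in 13.5%, 14.1% and 11.1%. The words TTGCGCAA or TTGCGAAA, of the kind bound by C/EBP factors, were in 0.465% of the first set, in 0 of the 283 and in 0.485% of all 8666. None of these words contains another. A match is a run of letters and not a shown binding site.

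Basophil and mast cell markers were the list with the highest median on the LSK side, at 2.33, and it stayed positive, at 0.53, with the spike-in scaling. Of 12 measured, 9 were at least 2-fold higher in LSK cells and none in CD45-negative cells. Cpa3, a carboxypeptidase of mast cell granules, lay at 3.38 in LSK cells and -0.23 in CD45-negative cells, Prss34, a basophil protease, at 5.58 and 2.57, and Mcpt4, a mast cell chymase, at -0.22 and -3.13. Hdc, the enzyme that makes histamine, lay at 3.72 and 3.96 and did not separate the arrays. Gata2 is also a stem cell factor and is counted in both lists. The median level of the list was 0.81 in LSK cells and -0.93 in CD45-negative cells; basophil or mast cells in the LSK sort were not tested.

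Megakaryocyte genes stood with the LSK cells and red cell genes with the CD45-negative cells. Of 11 megakaryocyte and platelet markers measured on both arrays, 5 were at least 2-fold higher in LSK cells and 1 in CD45-negative cells, and 5 more were above background in LSK cells only; the median of 0.68 turned to -1.12 with the spike-in scaling. Pf4, platelet factor 4, lay at 2.79 in LSK cells and -1.41 in CD45-negative cells, Treml1, a platelet granule receptor, at 0.08 and -3.51, and Vwf, von Willebrand factor, at 1.05 and -1.31. Selp, P-selectin, lay at 0.17 and -1.73. Among 21 erythroid markers measured, none was at least 2-fold higher in LSK cells and 19 were in CD45-negative cells, with a median of -2.37. Hba-a1, an alpha globin, lay at 2.31 in LSK cells and 7.71 in CD45-negative cells. Slc4a1, the anion exchanger of red cells, lay at 0.55 and 5.56, and Alas2, which starts haem synthesis in erythroid cells, at -1.06 and 3.53. Rhd, the Rh blood group antigen, lay at 0.46 and 4.83. Megakaryocyte and erythroid priming genes, which mix both branches, had 5 of 15 at least 2-fold higher in LSK cells and 6 in CD45-negative cells, with a median of -0.21. Gata1, the factor that erythroid and megakaryocyte cells share, lay at -0.85 and -0.64 and was the erythroid marker nearest to equal. A further 5 erythroid genes were above background in CD45-negative cells only. The median level of the list was 0.46 in LSK cells and 2.65 in CD45-negative cells, and the part of red cell RNA in the other differences was not tested.

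Lymphoid genes stood almost wholly on the CD45-negative side. Of 33 T and NK cell markers measured, 29 were at least 2-fold higher in CD45-negative cells and none in LSK cells, with a median of -2.48; a further 4 were above background in CD45-negative cells only. Cd3d, a chain of the T cell receptor complex, lay at -1.05 in LSK cells and 3.67 in CD45-negative cells. Cd8a and Cd8b1, the chains of the CD8 co-receptor, lay at -3.13 and 1.62, and at -3.91 and -0.08. Cd2, an adhesion receptor of T cells, lay at -2.55 and 1.74. Cd3e lay at -2.89 and -0.53. Nkg7, a granule protein of NK and T cells, was the 1 measured member not lower in LSK cells at its brightest probe, at 5.86 and 5.33, and its other probe differed by -0.48. The median level of the list was -0.77 in LSK cells and 2.24 in CD45-negative cells, and the part of T and NK cells in the CD45-negative sort was not tested.

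B cell markers followed the same order. Of 18 measured, 15 were at least 2-fold higher in CD45-negative cells and none in LSK cells, with a median of -2.29. Ms4a1, which encodes CD20, lay at -2.70 in LSK cells and 2.83 in CD45-negative cells, and Spib, a B cell ETS factor, at 0.80 and 5.08. Vpreb1, a surrogate light chain, lay at 7.54 and 7.78, and Dntt, the enzyme that adds bases to joining receptor genes, at 7.71 and 7.58. Both were saturated in CD45-negative cells, so those levels are lower limits. Lymphoid priming genes, which overlap the B cell list in Rag1, Rag2, Ebf1 and Blnk, had 0 of 16 at least 2-fold higher in LSK cells and 10 of 16 in CD45-negative cells, with a median of -1.74. Igh-6, the heavy chain of IgM, lay at -3.11 and 2.41, and Rag1, the recombinase, at 1.55 and 4.36. Ebf1, the B lineage factor, lay at 1.07 and 3.71, and Ccr7, a homing receptor of lymphocytes, at -2.67 and 0.61.

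Plasma cell markers were also higher in the CD45-negative array, with 7 of 11 at least 2-fold higher there, none in LSK cells and a median of -1.75. Jchain, which joins secreted IgM and IgA, lay at 2.96 in LSK cells and 7.62 in CD45-negative cells. Irf4, a plasma cell factor, lay at -1.60 and 2.46, Derl3, of the secretory pathway, at -0.20 and 2.94, and Mzb1, a chaperone of antibody secretion, at 3.90 and 6.19. Dendritic cell markers did not move as 1 group, with 4 of 13 at least 2-fold higher in LSK cells and 2 in CD45-negative cells. Clec9a, a receptor of conventional dendritic cells, lay at 0.70 and -2.84, while Ly6d, a surface protein of lymphoid precursors, lay at 2.98 and 5.83.

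Monocyte and macrophage markers lay on both sides. Of 18 measured, 9 were at least 2-fold higher in LSK cells and 6 in CD45-negative cells, with a median of 0.95 that turned to -0.85 with the spike-in scaling. C1qc, a complement chain of tissue macrophages, lay at -0.09 in LSK cells and -2.87 in CD45-negative cells, and Cx3cr1, the fractalkine receptor, at -0.35 and -3.16. Another 6 members, among them Cd163, a scavenger receptor of macrophages at least 7.68-fold higher, were above background in LSK cells only. Lyz2, lysozyme, lay at 0.14 and 2.98, and Itgam, the integrin of myeloid cells, at -0.66 and 1.57; both are made by neutrophils too. MHC class II genes, presenters of antigen, had 3 of 10 at least 2-fold higher in LSK cells and 1 in CD45-negative cells. H2-DMb1 lay at 3.76 and 1.38. H2-Aa differed by 1.63 at its brightest probe and by -0.05 at another.

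**Figure D3:**
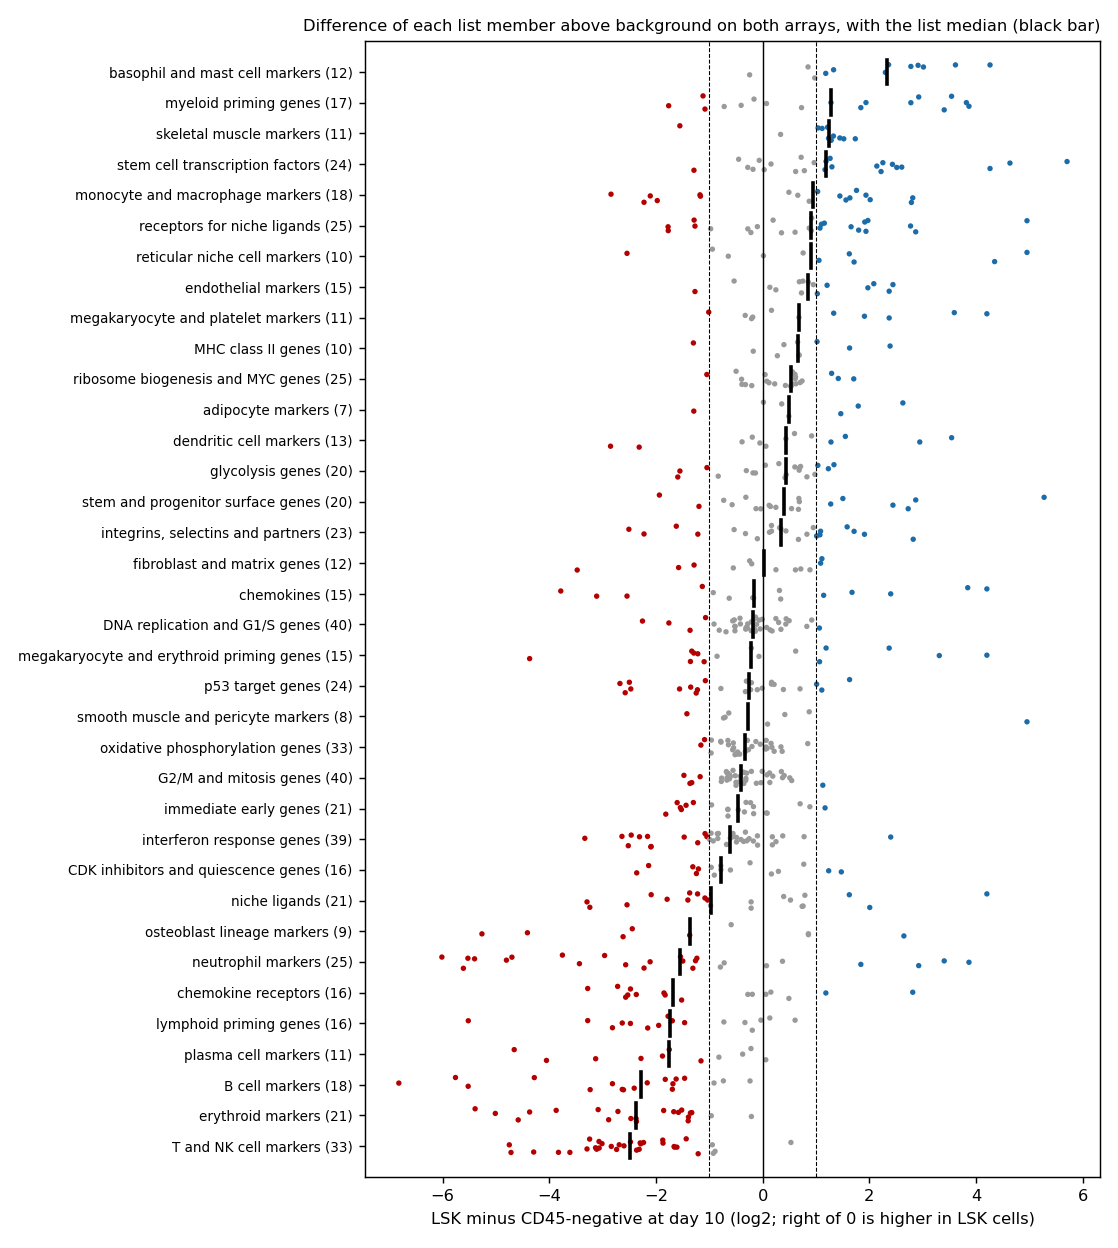
Difference between LSK and CD45-negative cells at day 10 (x axis, log2) for every list member above background on both arrays, 1 row per list with the number of members; blue points were at least 2-fold higher in LSK cells, red points at least 2-fold higher in CD45-negative cells, and black bars are medians. Medians run from -2.48 for the T and NK cell markers to 2.33 for the basophil and mast cell markers; with the spike-in scaling all points move by -1.80, and of the positive medians only the latter stays above 0.

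Markers of the stroma itself were few and did not all stand in the CD45-negative array. Of 25 reticular niche cell markers, 11 were above background on neither array; of the 10 measured on both, 1 was at least 2-fold higher in CD45-negative cells and 5 in LSK cells, a median of 0.91 that turned to -0.89 with the spike-in scaling and to -0.13 without a detection filter. Cxcl12 was the 1 member at least 2-fold higher in CD45-negative cells, with a difference of -2.54. Adipoq, adiponectin, was at least 5.06-fold higher there, Cxcl14, a chemokine, at least 2.53-fold higher, and Foxc1, the factor of reticular cells, at least 2.27-fold higher. Kitl, the gene of stem cell factor, was not well above background on either day 10 array. Vcam1, the adhesion partner of integrin alpha 4, lay at 0.52 in LSK cells and -1.19 in CD45-negative cells, the opposite side, and its difference of 1.71 turned to -0.09 with the spike-in scaling. Igfbp4, at 2.30 and -2.04, and Pdgfrb, given above, are also members of this list.

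Among the stromal lists, bone-forming genes had the median farthest to the CD45-negative side. Of 9 osteoblast lineage markers measured on both arrays, 5 were at least 2-fold higher in CD45-negative cells and 1 in LSK cells. The median of -1.37 became -0.54 without a detection filter. Of the 19 markers on the array, 8 were above background on neither array. Bglap, osteocalcin, lay at -3.64 in LSK cells and 1.63 in CD45-negative cells, and Col1a1, the main chain of bone collagen, at -2.53 and 1.88. Sparc, osteonectin, lay at -3.38 and -0.76. Spp1, osteopontin, lay at -0.50 and 0.87. Runx2, the factor that directs bone formation, stood the other way at 2.26 in LSK cells and -0.39 in CD45-negative cells, with both of its probes at least 2.19 apart. At day 0 Col1a1 lay at 5.32 and Bglap at 4.47 in CD45-negative cells. On the spike-in scaling Col1a1 lay at 1.63 at day 0 and 1.57 at day 10, and Bglap at 0.79 and 1.32, so Bglap turned its order.

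Of 15 endothelial markers measured, 6 were at least 2-fold higher in LSK cells and 1, Kdr, the main receptor for VEGF, in CD45-negative cells, where it lay at -1.26 against -2.54. The median was 0.85, turning to -0.94 with the spike-in scaling. Flt1, the other VEGF receptor, lay at -0.48 in LSK cells and -2.45 in CD45-negative cells, and Egfl7, a secreted protein of vessels and stem cells, at 4.78 and 2.70. Cdh5, the junction protein that defines endothelium, was at least 1.82-fold higher in CD45-negative cells and not above background in LSK cells. Several of the 15 are also stem cell genes, among them Emcn, Eng and Robo4. The 12 fibroblast and matrix genes measured had a median of 0.02, with 2 at least 2-fold higher in LSK cells and 3 in CD45-negative cells, and 13 of the 34 on the array were above background on neither array. Thbs1, thrombospondin, lay at -2.94 in LSK cells and 0.53 in CD45-negative cells. Of 7 adipocyte markers 3 were at least 2-fold higher in LSK cells and 1 in CD45-negative cells, and Pparg, the adipocyte factor that macrophages also use, lay at 0.94 and -1.68. Of 8 smooth muscle and pericyte markers 1 stood higher on each side.

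Skeletal muscle genes were detected in both sorts. Of 11 measured, 9 were at least 2-fold higher in LSK cells and 1, Mylpf, in CD45-negative cells, with a median of 1.23 that turned to -0.57 with the spike-in scaling. Myh1, a fast myosin, lay at -0.12 in LSK cells and -1.64 in CD45-negative cells, Pvalb, parvalbumin, at -0.99 and -2.73, and Ttn, titin, at -2.59 and -4.03. At day 0 the same list had a median of -1.46, which turned to 0.29 with the spike-in scaling. Myh4, another fast myosin, lay at 5.27 and 4.05. The median level of the list was -0.12 in LSK cells and -0.70 in CD45-negative cells, with 4 of the 17 genes above background on neither array and 2 in LSK cells only, and the part of muscle RNA in other differences was not tested.

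Among 21 niche ligands measured, 3 were at least 2-fold higher in LSK cells and 10 in CD45-negative cells, with a median of -0.98, and 10 of the 34 were above background on neither array. Over the 16 ligands above background on all 4 arrays the day 10 median was 0.09, so the sign of the median rests on which ligands are counted. Ifng, interferon gamma, lay at -0.36 in LSK cells and 2.94 in CD45-negative cells. Il1b, interleukin 1 beta, lay at 0.41 and 3.65. Both are products of lymphoid and myeloid blood cells, while Cxcl12, with -2.54, is a product of stroma. Pf4 and Angpt1 were higher in LSK cells. Among 25 receptors measured, 11 were at least 2-fold higher in LSK cells and 4 in CD45-negative cells, a median of 0.91 that turned to -0.89 with the spike-in scaling. Il1r1, the receptor for interleukin 1, lay at -0.47 in LSK cells and -3.24 in CD45-negative cells. Cxcr4, the receptor for CXCL12, lay at 2.84 and 3.12, and Tgfbr2, a receptor for TGF-beta, at 1.63 and 3.40 at its brightest probe, with its other probe differing by 0.78.

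Chemokines were found on both sides, with 5 of 15 at least 2-fold higher in LSK cells and 4 in CD45-negative cells; the median of -0.17 changed sign under 4 alternatives. Ccl9, a chemokine of myeloid cells, lay at 5.49 in LSK cells and 1.64 in CD45-negative cells, whereas Xcl1 and Ccl5, both products of NK and T cells, lay at -1.90 and 1.88, and at 2.76 and 5.88. Of 16 chemokine receptors, 9 were at least 2-fold higher in CD45-negative cells and 2 in LSK cells, with a median of -1.68. Cxcr6, a receptor of T and NK cells, lay at 1.72 in CD45-negative cells, a difference of -2.72. Integrins, selectins and their partners had 7 of 23 higher in LSK cells and 4 in CD45-negative cells. Itgb5, an integrin chain for vitronectin, lay at 1.60 and -1.22, and Itga9, an integrin chain of neutrophils, at -3.49 and -0.98.

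Most proliferation genes were less than 2-fold apart at day 10, and both list medians lay below the all-gene median of 0.15. Of 40 DNA replication and G1/S genes, 1 was at least 2-fold higher in LSK cells and 4 in CD45-negative cells, with a median of -0.19. Pcna, the sliding clamp, lay at 5.37 in LSK cells and 6.44 in CD45-negative cells, and Cdc45, a helicase factor, at -2.53 and -0.27. Of 40 G2/M and mitosis genes the counts were again 1 and 4, with a median of -0.40. Mki67, the proliferation antigen, lay at 6.19 and 6.71, with its 2 probes differing by -0.52 and 0.87, and Cdk1, the mitotic kinase, at 0.36 and 1.53. At day 0 the same 40 mitosis genes had a median of -1.84, with 38 at least 2-fold higher in CD45-negative cells. With the spike-in scaling the order of the days turned, with a mitosis median of -2.20 at day 10 and -0.09 at day 0. Without the spike-in scaling, Mki67 lay at 6.02 in LSK cells and 8.96 in CD45-negative cells at day 0. On the spike-in scaling its CD45-negative level was 5.27 at day 0 and 6.39 at day 10, so its order between the days depends on the scaling.

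Of 16 CDK inhibitors and quiescence genes, 5 were at least 2-fold higher in CD45-negative cells, against 10.5% of all names and 14% of gene symbols. In LSK cells 2 were, against 14.5% of all names and 11.5% of gene symbols. The median was -0.79. Foxo1 lay at 2.91 in LSK cells and 5.28 in CD45-negative cells, and Btg1, an anti-proliferation gene abundant in lymphocytes, at 3.98 and 6.12. Foxo3, of the same family as Foxo1, stood the other way at -0.95 and -2.43, a difference of 1.47 that turned to -0.33 with the spike-in scaling. Cdkn1a, the p53 target p21, lay at 1.76 and 1.60, and Cdkn1c, p57 of quiescent stem cells, at -1.07 and -1.36, neither 2-fold apart. Of 24 p53 target genes, 9 were at least 2-fold higher in CD45-negative cells and 3 in LSK cells. Fas, a death receptor, lay at -2.39 and 0.29, and Gadd45a, a growth arrest gene, at -0.65 and 1.82.

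Growth and energy genes differed little. Ribosome biogenesis and MYC genes had 3 of 25 at least 2-fold higher in LSK cells and 1 in CD45-negative cells, a median of 0.53 that turned to -1.27 with the spike-in scaling. Myc lay at 4.36 in LSK cells and 2.65 in CD45-negative cells, and its probes differed by 1.71 to 4.19. Oxidative phosphorylation genes had 0 of 33 at least 2-fold higher in LSK cells and 2 in CD45-negative cells, Sdhb and Uqcrfs1, and glycolysis genes had 3 of 20 on each side. Interferon response genes had 12 of 39 at least 2-fold higher in CD45-negative cells and 1, Cxcl9, in LSK cells, with a median of -0.61. Rsad2, an antiviral enzyme, lay at -0.01 in LSK cells and 3.33 in CD45-negative cells, and Isg15, a ubiquitin-like modifier, at 0.40 and 3.04. At day 0 the CD45-negative levels of both were 7.48 and 5.91. On the spike-in scaling Rsad2 lay at 3.80 at day 0 and 3.01 at day 10, and Isg15 at 2.22 and 2.73, which turned the order of Isg15. Immediate early genes, the first to respond to stimuli and to handling of cells, had 6 of 21 higher in CD45-negative cells and 1 in LSK cells, with a median of -0.46. Dusp2 lay at 5.42 and 7.24 and Jun at 2.11 and 3.63.

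The same contrast in healthy mice gave a wider spread. Over the 20945 gene names above background on all 4 arrays, 18.3% were at least 2-fold higher in LSK cells at day 0 and 17.9% in CD45-negative cells. At day 10 the counts over the same 20945 names were 2949 in LSK cells and 2162 in CD45-negative cells. The SD of the differences was 1.34 at day 0 and 0.97 at day 10. Pearson's r between the levels of the 2 populations was 0.884 at day 0 and 0.940 at day 10 across these names, which share probes and their affinities and are not replicates. The LSK arrays of both days correlated at 0.986 and the CD45-negative arrays at 0.889. The day 0 CD45-negative array enters the wider spread and both lower correlations. Of the 4 arrays it had the lowest 75th percentile signal, 6.86 log2 units, and the fewest probes above background, 47.6%. It also had the largest SD between repeat spots, 0.21. The part of this array's signal in the wider spread was not tested. Of the names, 978 were at least 2-fold higher in LSK cells on both days and 834 in CD45-negative cells on both days, while 190 stood on the LSK side at day 0 and on the CD45-negative side at day 10, and 305 the other way round.

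The lists show where the contrast differed between the days. T and NK cell markers measured on all 4 arrays, 17 genes, had a median of 2.29 at day 0, higher in LSK cells, and -2.84 at day 10. Cd3d lay at 0.98 in LSK cells and -2.98 in CD45-negative cells at day 0, the latter near the lowest called above background on that array, -3.15. Plasma cell markers had medians of 1.25 and -2.02 at day 0 and day 10 over 8 genes, and Jchain lay at 7.60 in LSK cells and 1.33 in CD45-negative cells at day 0. Erythroid markers kept their side with -5.94 at day 0 and -2.37 at day 10. Basophil and mast cell markers kept theirs with 6.04 and 2.78 over 7 genes, and stem cell transcription factors with 1.52 and 1.08 over 20. The spike-in scaling moves day 0 differences by 1.75 and day 10 differences by -1.80. With it the T and NK cell markers had medians of 4.05 and -4.64 at day 0 and day 10, the erythroid markers -4.19 and -4.17, and the stem cell factors 3.27 and -0.72. None of these differences between the days was tested, since each rests on 4 arrays.

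**Figure D4:**
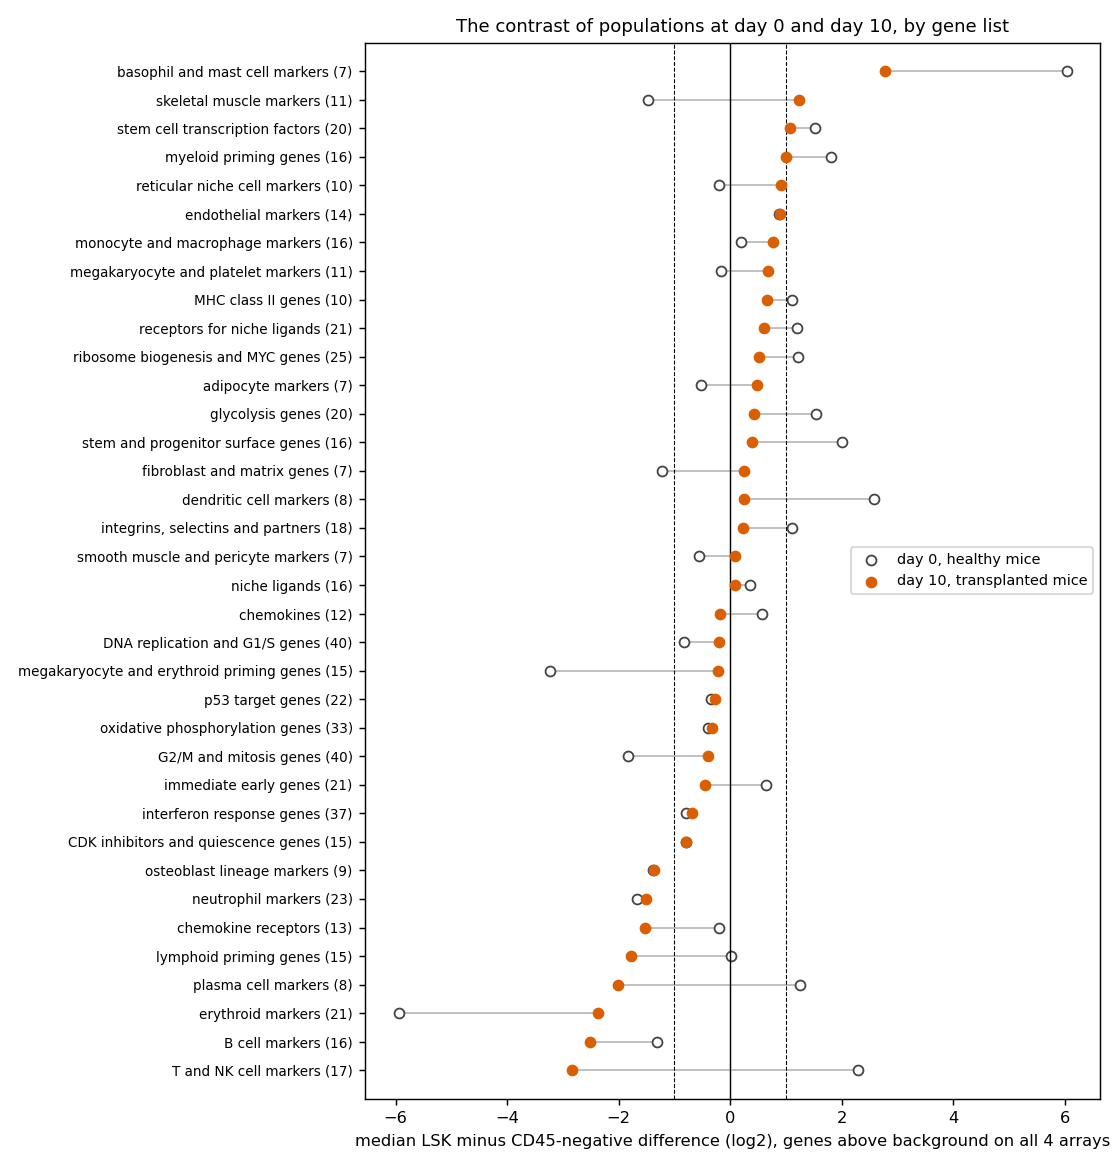
Median difference between LSK and CD45-negative cells (x axis, log2) for each list with at least 5 genes above background on all 4 arrays, at day 0 (open circles) and day 10 (filled circles), with the number of genes. The T and NK cell markers lie at 2.29 at day 0 and -2.84 at day 10, and the erythroid markers at -5.94 and -2.37; positions are those of the 75th percentile scaling, and with the spike-in scaling the filled circles move by -1.80, which puts below 0 every positive day 10 median except that of the basophil and mast cell markers, while the open circles move by 1.75 the other way.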

How the data were processed

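RNA of LSK and CD45-negative marrow cells was hybridised to 4 one-colour Agilent mouse arrays of 1 slide, 1 per population and day. Per the file headers, Feature Extraction 10.5.1.1 made the deposited spot files, whose background-subtracted processed intensity was used here, with the deposited flags for background, saturation and outlier spots. The authors' deposited table held log2 values that differed from log2 processed intensity by 1 constant per array, and served as an alternative. The array design refers to mm9, per the file headers.

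Control and outlier spots were left out (15 to 59 outlier spots per array), repeat spots averaged, log2 intensities set relative to the 75th percentile of the array, and the brightest probe taken for each gene name. Of 40628 gene probes, 28136 had an accession found in RefSeq's gene table, from which their symbols were taken. A name above background on 1 array was given a bound. With 1 array a group no test was run, and at least 2-fold was counted. The counting code was run on simulated arrays with planted differences larger than the size counted and noise below that between repeat spots. That run checks the code and not the counts above. Python 3.11.15, R 4.3.3 and limma 3.58.1 were used. Promoter sequences are RefSeq's on GRCm38.p6.

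Genes named are the 10 largest differences each way among gene symbols not saturated and 2-fold the same way with normexp, quantile and mean-of-probes values, the 5 largest bounds each way, up to 4 members of each list and a short set of niche and sort genes; others are named as noted or to complete a list. One gene that this rule names is not reported here. The members and the 36 lists (809 genes, 803 on the array) were chosen with earlier results of these data known. Alternatives were 13 settings of background correction, scaling, probe choice and filter.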

Additional observations from a re-analysis of the deposited data

Results flagged for a closer look

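For 3 lists and 16 named genes the difference between LSK and CD45-negative cells was at least 2-fold at both days and pointed in opposite directions. Each value rests on 1 array per population and day, and the difference between the days was not tested. The directions are those of the 75th percentile scaling. With the spike-in scaling, which moves day 10 differences by -1.80 and day 0 differences by 1.75, 2 lists (T and NK cell and plasma cell markers) and 8 genes kept both directions; 1 list and the other 8 genes did not.

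The T and NK cell markers had a median of -2.84 at day 10 and 2.29 at day 0, and the plasma cell markers -2.02 and 1.25. Skeletal muscle markers went the other way, with 1.23 at day 10 and -1.46 at day 0.

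Of the 16 genes, 8 were higher in CD45-negative cells at day 10 and in LSK cells at day 0. They included Cd3d, of the T cell receptor complex, with -4.72 at day 10 and 3.96 at day 0, and Ccl5, a chemokine of T and NK cells, with -3.11 and 3.89. At day 0 the CD45-negative level of Cd3d, -2.98, lay near the lowest called above background on that array, -3.15. Antibody genes were Igh-6, with -5.52 and 2.84, and Jchain, with -4.66 and 6.27, and Derl3, of the secretory pathway, had -3.13 and 3.55. Ptprc, which encodes CD45, had -1.33 and 1.08. Timp2, a metalloprotease inhibitor, had -1.29 and 1.52, and Gar1, of the small nucleolar particles, -1.05 and 1.01.

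The other 8 were higher in LSK cells at day 10 and in CD45-negative cells at day 0. They are the 8 that lost this pattern with the spike-in scaling. Lmo2, the stem cell and erythroid cofactor, had 2.61 at day 10 and -1.15 at day 0, and Vwf, von Willebrand factor, 2.37 and -1.05. With the spike-in scaling Lmo2 had 0.81 and 0.60 and Vwf 0.57 and 0.70, the same side at both days. The muscle genes Pvalb, Myh1 and Ttn had 1.74, 1.52 and 1.45 at day 10 and -1.78, -1.39 and -2.01 at day 0. Foxo3 had 1.47 and -2.24, Fabp4, a fatty acid binding protein, 1.46 and -1.81, and Timp1 1.11 and -1.21.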

How the results depend on the processing

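With 1 array per group there was no replicate to leave out. No paired analysis was possible because each group has 1 array. Signal over background limits the low levels, where a small shift decides detection.

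The count higher in LSK cells, 3486, became 1623 with normexp correction, 1486 with median scaling, 109 with the spike-in shift, 10050 with no detection filter, 6275 with detection on at least 1 array and 1259 over gene symbols. The count higher in CD45-negative cells, 2523, became 4867 with median scaling, 19045 with the spike-in shift, 4056 with no filter and 1530 over gene symbols. The LSK share of 58.0% became 48.7% with normexp, 50.5% with quantile normalization, 40.9% with loess, 23.4% with median scaling, 64.1% with the percentile of detected probes, 0.6% with the spike-in shift, 71.2% with no filter, 65.1% with 1 array and 45.1% over gene symbols. The all-gene median of 0.151 became 0.061 with quantile normalization, -0.035 with loess, -0.263 with median scaling, -1.648 with the spike-in shift, 0.258 with 1 array and -0.073 over gene symbols. The spike-in scaling of the day 0 arrays, which moved day 0 differences by 1.75, was chosen after seeing the data. Apart from the construction of each setting, the cause was not tested.

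Of the 12 lists with a median of at least 2-fold, 9 kept their direction with the spike-in shift. It took the stem cell factors to -0.622, the myeloid priming genes to -0.52 and the skeletal muscle markers to -0.567. All 12 kept their direction in the other settings. The median stayed at least 2-fold in 9 lists with normexp, 9 with median scaling, 10 with no detection filter, 11 with the mean of probes and 8 with the spike-in shift. Of 136 named genes at least 2-fold apart, 122 stayed so with normexp. With the spike-in shift 121 kept their direction and 109 also stayed at least 2-fold apart. Those it turned were Vcam1 (-0.088), Cfd (-0.009), Fabp4 (-0.336), Timp1 (-0.69), Pvalb (-0.064), Myh1 (-0.28), Ttn (-0.355), H2-Aa (-0.172), H2-Ab1 (-0.781), Foxo3 (-0.326), Myc (-0.093), Nolc1 (-0.383), Npm3 (-0.508), Hk2 (-0.464) and Pfkl (-0.569). With the brightest probe over 4 arrays Grn turned to 0.315, and no other setting turned any of the 136 genes. Leaving out the detection filter, asking for detection on at least 1 array or dropping saturated probes left each named gene's value as it was. These settings could therefore turn none. The 10 largest each way were picked to be 2-fold the same way with normexp, quantile and mean-of-probes values, so those could not turn them either.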

Other observations

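The counts differed with the level of the genes. Among the 11501 gene names with a mean level under 0, 19.2% were at least 2-fold higher in LSK cells and 11% in CD45-negative cells, while among the 12465 brighter names the shares were 10.2% and 10.1%. Noncoding RNA probes had a median difference of 0.43 and a median level of -1.37, against -0.07 and 0.97 for gene symbols.

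Different probes of a gene did not always point the same way. Of 5032 genes with at least 2 probes above background on both arrays, 978 were at least 2-fold apart at the brightest probe, and in 768 of those every probe had the same sign.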
